A study of Mus musculus with 3 samples.

Results

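The step from E13.5 to E14.5 in the male gonad of Cyp26b1-/- mouse embryos was followed with the 2 arrays of the E14.5 sample and the 2 arrays of the E13.5 sample, which are 2 of the 3 samples of the series and 4 of its 6 arrays. Both groups were embryonic male gonads of the mouse line MCH, homozygous for the loss of Cyp26b1, and differed by label only in age, at embryonic day 13.5 or 14.5. The series describes the 2 arrays of a stage as biological duplicates, and whether gonads were pooled for an array is not stated. Arrays of a control genotype were not analysed here, so a change between the stages cannot be told apart from one that gonads with Cyp26b1 would also show.

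All 4 arrays lay on 1 slide, with E13.5 at positions 1 and 2 and E14.5 at positions 3 and 4. Position on the slide and stage therefore cannot be told apart. The share of spots flagged well above background ran from 67.6% to 70.8%, and saturated spots numbered 0. Markers of the tissue were looked up against the background flag. All 4 Sertoli cell markers, 4 germ cell markers, the 4 fetal Leydig cell markers that the array measures and 4 genes of the Y chromosome passed the background flag on each of the 4 arrays, while Xist passed it on none. All 6 markers of the mesonephros and ducts, 4 endothelial and 7 measured red cell markers passed it as well. A pass therefore does not set the gonad apart from tissue beside it. Cyp26b1 itself gave a log2 signal, relative to the 75th percentile of its array, of 4.26 and 4.16 on the E13.5 arrays and of 4.23 and 3.78 on the E14.5 arrays. Where its probe lies relative to the deleted part is not known here, so this signal does not check the genotype.

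Retinoic acid drives germ cells into meiosis, and Cyp26b1 is the enzyme that breaks it down in the fetal testis, where male germ cells otherwise stop dividing without entering meiosis. In the testis without Cyp26b1, germ cells start the meiotic programme, with Stra8 as an early gene, Rec8 in the chromosome axis, Sycp1 to Sycp3 in the synaptonemal complex and Dmc1, Msh4 and Msh5 in recombination. Early germ cells also carry transcripts of pluripotency genes, which are turned off as they differentiate, while fetal Leydig cells make androgen from cholesterol.

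Few genes passed the test in this step, and nearly all were dim. Of 13489 genes tested, 6 rose (0.0445%) and 1 fell (0.00741%) at a Benjamini-Hochberg adjusted p under 0.05 in limma. Each difference is given on the log2 scale as the E14.5 mean minus the E13.5 mean, with its standard error and 2 arrays per stage. Rtl3, one of the mammalian genes derived from a retrotransposon, was at -9.02 and -8.53 at E13.5 and at -5.73 and -6.05 at E14.5. It was well above background on neither E13.5 array, so its rise is at least 3.09-fold (2.89 ± 0.20, adjusted p = 0.0451). In the authors' deposited table its log2 difference was 1.83.

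Spag16, which encodes a protein of the central apparatus of cilia and sperm tails, was at -7.38 and -7.26 at E13.5 and at -5.13 and -4.84 at E14.5, a rise of at least 4.67-fold (2.34 ± 0.17). Its other probe was well above background on 0 of the 4 arrays, with a difference of -0.17. Pi15, which encodes a secreted peptidase inhibitor, was at -7.00 and -7.14 and then at -5.57 and -5.44, a rise of at least 2.85-fold (1.57 ± 0.13). All 3 genes were below background at E13.5 and above it on both arrays at E14.5.

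Arsj, which encodes an arylsulfatase, rose 3.32-fold, from -5.22 and -5.12 to -3.55 and -3.33 (1.73 ± 0.15). P2ry14, a receptor for nucleotide sugars, rose 2.5-fold, from -5.76 and -5.78 to -4.35 and -4.55 (1.32 ± 0.11). Prss45, a serine protease gene, rose 3.42-fold, from -6.44 and -6.56 to -4.84 and -4.62 (1.77 ± 0.13), and was above background on 1 of the E13.5 arrays. Ldoc1, like Rtl3 derived from a retrotransposon, fell from -6.54 and -6.33 to -7.81 and -7.87 (-1.40 ± 0.12). It was above background on 1 E13.5 array and neither E14.5 array, so it was at least 2.06-fold lower. All 7 share the adjusted p of 0.0451, and in each the groups did not overlap.

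**Figure D1:**
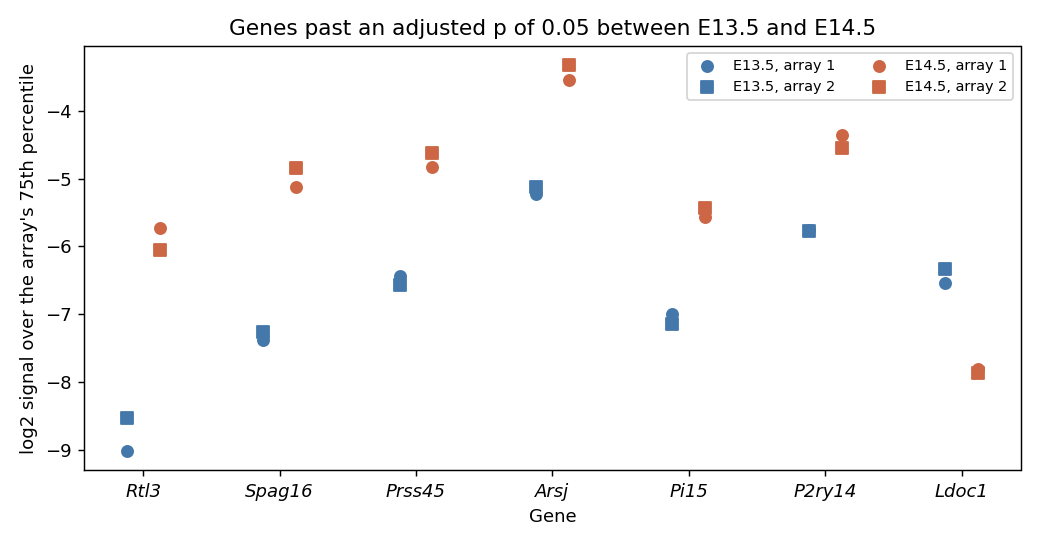
Log2 signal over the 75th percentile of the array (y axis) for the 7 genes past the threshold (x axis), with blue for E13.5, orange for E14.5 and circle and square for the arrays numbered 1 and 2 of a stage. The duplicates lie close together in each gene, and Ldoc1 is the gene that is lower at E14.5.

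The calls changed with the arrays that entered the fit. With the 4 arrays alone 0 genes passed, while 2536 had an unadjusted p under 0.05, against 2479 in the fit on all 6 arrays. Leaving out any 1 of the E12.5 arrays, which lend only their spread, gives the same fit as the 4 arrays alone and is no separate check. Without the second E14.5 array the 1 gene that passed was Tmem159, which is not among the 7. Without the second E13.5 array 28 passed, and without the first E14.5 array 47 passed, with 2 and 5 of the 7 among them. All 7 kept their direction in each of these fits, but this was fixed in advance, since their stages did not overlap on any array. The genes below are therefore described by their values and by whether the arrays of the stages overlapped.

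Among all genes, 325 were at least 2-fold higher at E14.5 with both arrays above both E13.5 arrays (2.41%), and 102 were at least 2-fold lower in the same way (0.756%). At any size, 3564 genes lay higher without overlap (26.4%) and 3928 lower (29.1%), and the median difference over all genes was -0.02. The 325 higher genes were mostly dim, with a median E14.5 signal of -3.03 where all genes had 0.07, and 48 of them lay above the 75th percentile of the array. A second probe that was above background on both E14.5 arrays measured 48 of the 325 genes. Of these 58 other probes, 55 were higher at E14.5 and 34 at least 2-fold. For the 102 lower genes, 11 other probes were above background on both E13.5 arrays, and 10 of these were lower at E14.5. Each set of other probes was thus filtered through the stage where its genes were high.

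Genes with the largest differences by the naming rule and no call included Npy, which encodes neuropeptide Y, at -3.32 and -3.15 at E13.5 and then -0.92 and -0.67 at E14.5 (2.44 ± 0.29, adjusted p = 0.0786). Esx1, a homeobox gene of the X chromosome, was at -4.79 and -4.01 and then at -2.16 and -1.36 (2.64 ± 0.43, adjusted p = 0.0899). Nmur1, a receptor for neuromedin peptides, was at least 6.33-fold higher at E14.5, since it was below background on both E13.5 arrays. In these genes the stages did not overlap.

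Genes of meiosis were mostly higher at E14.5, without a call in any of them by the limma fit described. Of 49 genes in the meiosis list 31 were measured. Of these, 24 lay higher without overlap (77.4%) and 4 lower (12.9%), where all genes had 26.4% and 29.1%. The lower ones were Mnd1, Tex14, Trip13 and Psmc3ip. The median difference of the 31 was 0.45, where all genes had -0.02. At least 2-fold higher were 12 of the 31, against 2.41% of all genes. The lowest adjusted p in the list was 0.0899. With normexp background correction 7 passed as higher, and with a trended robust prior 4 did (Dmc1, Dpep3, M1ap and Sycp3), while Mnd1 passed as lower in both.

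Promoter sequence of 3 of these 12 genes is shown because they hold a motif that is known from germ cell or cell cycle genes. Each run is the 150 bases before the annotated start from RefSeq, build GRCm38.p6, written 5′ to 3′ along the gene. Capitals mark CACGTG (an E-box) or TTCCCGC (an E2F motif, GCGGGAA on the other strand), searched on both strands. The motifs do not overlap each other here.
Sycp3, chr10:88459437-88459586, strand +: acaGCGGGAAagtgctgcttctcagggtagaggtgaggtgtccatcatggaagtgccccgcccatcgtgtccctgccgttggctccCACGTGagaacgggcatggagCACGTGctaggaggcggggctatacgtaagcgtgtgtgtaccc
Taf7l, chrX:134476491-134476640, strand -: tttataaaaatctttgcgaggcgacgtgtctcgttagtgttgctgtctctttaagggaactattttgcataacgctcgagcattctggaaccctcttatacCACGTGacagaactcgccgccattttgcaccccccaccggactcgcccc
Msh5, chr17:35046623-35046772, strand -: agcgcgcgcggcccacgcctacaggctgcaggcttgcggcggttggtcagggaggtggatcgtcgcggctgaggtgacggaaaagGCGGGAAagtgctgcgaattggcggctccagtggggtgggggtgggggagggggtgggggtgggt

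Of the 31 measured meiosis genes, 28 had a promoter in the RefSeq table, taken as 250 bases before to 50 after the first listed start. CACGTG stood in 7 of the 28 (25%), against 9.62% of 10745 promoters of all measured genes. TTCCCGC also stood in 7 (25%), against 7.8%. In the 250 promoters of genes at least 2-fold higher, the shares were 6% and 5.6%. Neither motif was found in Dmc1, Stra8 or Rec8 in this window. Of the 12 meiosis genes at least 2-fold higher, those not shown held neither motif or had no promoter listed. Meiosis genes that were not 2-fold higher also held them, such as Hormad1, with both. Tex14, which was lower at E14.5, held TTCCCGC. A match describes the letters and is not a binding site.

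Dmc1, the meiotic strand-exchange protein, was at -2.27 and -1.79 at E13.5 and at -0.87 and -0.89 at E14.5 (1.15 ± 0.17). Sycp3 was at 0.74 and 1.23 and then at 1.85 and 2.19 (1.04 ± 0.21). In both genes the E14.5 arrays lay above the E13.5 arrays, and in Dmc1 the E14.5 pair nearly coincided.

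M1ap, which is needed for male meiosis, was at 2.53 and 3.29 and then at 4.15 and 4.29 (1.31 ± 0.24). Msh5 had the largest difference in the list, from -3.92 and -2.74 to -2.11 and -1.72 (1.42 ± 0.38). Its other probe, above background on all 4 arrays, showed a smaller difference of 0.35. Stra8 was at 6.41 and 6.74 at E13.5 and at 7.15 and 6.99 at E14.5 (0.50 ± 0.17), and Rec8 differed by 0.41 ± 0.20 on one probe and by 0.42 on the other. Mnd1, a partner of the recombinases, was lower at E14.5 (-0.78 ± 0.19).

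Transcripts of pluripotency and early germ cells lay lower at E14.5. Of 33 genes listed 28 were measured, and 22 of these were lower without overlap (78.6%) and 0 higher. All genes had 29.1% lower and 26.4% higher. Of the 28, 11 were at least 2-fold lower, against 0.756% of all genes, and the median difference was -0.65. None was called, and the lowest adjusted p was 0.0883. With normexp background correction 9 of the 28 passed as lower, Nanog, Tfap2c and Tcl1 among them, and with a trended robust prior 3 did (Prdm1, Tfap2c and Utf1). Tfap2c, a transcription factor of primordial germ cells, was at -1.24 and -1.92 at E13.5 and at -3.49 and -4.13 at E14.5 (-2.23 ± 0.29). Both E14.5 arrays lay below both E13.5 arrays.

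Nanog, a core pluripotency factor, was at -0.71 and -0.90 and then at -1.78 and -3.03 (-1.60 ± 0.42). Tcl1, a co-activator of AKT kinase, was at 0.23 and -0.51 and then at -1.58 and -3.09 (-2.19 ± 0.51). In both genes the stages were apart, and the second E14.5 array was more than 1 log2 unit below the first. Sox2 was also lower without overlap (-1.09 ± 0.42), at 0.46 on the first and -0.97 on the second E14.5 array after 0.87 and 0.80. Pou5f1, which encodes Oct4, did not separate the stages, at 1.63 and 1.86 at E13.5 and then 2.14 and 1.10 at E14.5.

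Nodal pathway inhibitors followed the same order of arrays. Lefty2 was at 1.54 and 1.46 and then at 0.49 and 0.00 (-1.26 ± 0.23), and Lefty1 was at 2.63 and 2.75 and then at 2.38 and 0.93 (-1.04 ± 0.46). The germ cell genes Ddx4, an RNA helicase, and Dazl, an RNA-binding protein, had differences of 0.02 ± 0.11 and -0.10 ± 0.19. The summed linear signal of the 4 germ cell markers, in units of the 75th percentile, was 56.7 and 60.6 at E13.5 and then 57.4 and 40.9 at E14.5, lowest on the second E14.5 array. The sum is not independent of the pluripotency list, since Pou5f1 is in both. Dppa3, another of the 4 markers, was at 4.61 and 3.82 at E14.5. The part of germ cell RNA in the pluripotency result was not tested. In whole gonads, fewer cells of a type and less RNA per cell cannot be told apart.

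**Figure D2:**
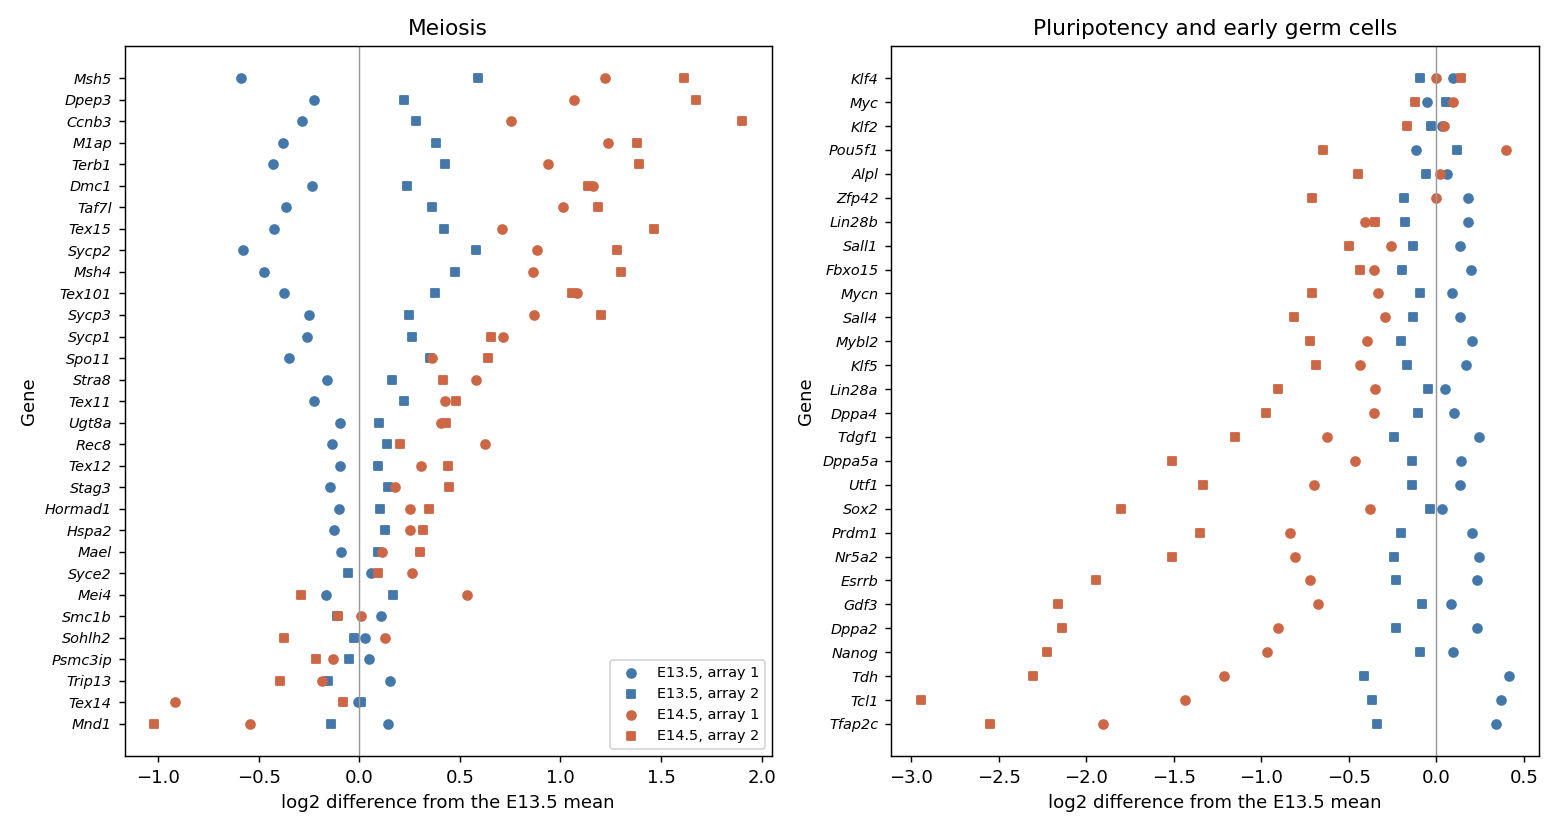
Log2 difference from the E13.5 mean of each gene (x axis) for the 31 meiosis genes and the 28 pluripotency genes (y axis), with blue for E13.5, orange for E14.5 and circle and square for arrays 1 and 2. Both E14.5 arrays lie above E13.5 in 24 meiosis genes and below it in 22 pluripotency genes, where the squares of E14.5 lie further out.

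Other germ cell genes ran both ways. Of 12 measured oocyte genes, Figla, a transcription factor of the primordial follicle, was at -2.96 and -2.21 at E13.5 and then -1.26 and -0.95 at E14.5 (1.49 ± 0.32). Khdc3, of the subcortical maternal complex, went the other way, from -0.56 and -1.37 to -2.29 and -3.45 (-1.91 ± 0.42). Nanos2, which promotes the male germ cell fate, overlapped between the stages, with a difference of 0.18 ± 0.40. Of 19 genes of male germ cell differentiation, 6 were higher (31.6%) and 8 lower (42.1%) without overlap, where all genes had 26.4% and 29.1%.

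A group of X-linked genes, chosen after their values were seen, had large differences. Of 12 measured Magea, Mageb and Ssx genes, which are expressed in germ cells, 12 lay higher without overlap and 11 at least 2-fold. All genes had 26.4% and 2.41%, but a group chosen by its values is no test against these shares. Magea1 was at -2.44 and -1.56 at E13.5 and at -0.33 and -0.08 at E14.5 (1.79 ± 0.28). Magea genes are close copies of each other, so their probes may share signal and may not be separate measurements. By the RefSeq annotation, 35 of the 325 higher genes were on chromosome X (10.8%) and 2 of the 102 lower ones (1.96%), where all genes had 3.59%. The 35 include the 11 Magea, Mageb and Ssx genes, so the share is not a separate observation.

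Genes of fetal Leydig cells and of steroid synthesis were higher at E14.5. Of 25 measured Leydig genes, 17 lay higher without overlap (68%) and 2, Gata4 and Ptch1, lower (8%). All genes had 26.4% and 29.1%. The Leydig list had a median of 0.36 and a lowest adjusted p in limma of 0.0899. Cyp11a1, the enzyme that starts steroid synthesis from cholesterol, was at 2.31 and 2.85 at E13.5 and at 3.84 and 4.33 at E14.5 (1.50 ± 0.23). Its other probe differed by 1.42. Star, which carries cholesterol into mitochondria, was at 0.99 and 1.15 and then at 1.74 and 2.21 (0.91 ± 0.20).

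Cyp17a1, which makes androgen precursors, was at 2.98 and 3.45 and then at 4.06 and 4.42 (1.03 ± 0.28). Ren1, which encodes renin, differed by 1.41 ± 0.45 and its other probe by 1.60. The summed signal of the 4 measured Leydig markers was 33.4 and 39.3 at E13.5 and then 58.6 and 77.8 at E14.5. The stages did not overlap in these genes or in the sum.

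Cholesterol synthesis genes lay slightly higher as a group. Of 24 measured genes, 20 were higher without overlap (83.3%) and 0 lower, where all genes had 26.4% and 29.1%. The list median was 0.29. Tm7sf2, a sterol reductase, was at 1.77 and 2.23 and then at 2.92 and 3.15 (1.03 ± 0.18), and it was the 1 gene at least 2-fold higher. The motif CCAAT stood in 14 of the 16 promoters that matched (87.5%), against 38.8% of all. It was not particular to this list. It also stood in 22 of 29 mitosis promoters (75.9%) and 21 of 34 replication promoters (61.8%), whose lists lay lower in this step.

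Sertoli cell genes, which belong to the supporting cells of the cords, lay higher and lower in shares near those of all genes. Of 39 measured, 14 lay higher (35.9%) and 9 lower (23.1%) without overlap, with a median of 0.02, where all genes had 26.4% and 29.1%. Defb36, a defensin gene, was at -2.31 and -2.17 at E13.5 and at -1.26 and -0.38 at E14.5 (1.42 ± 0.28), and Clu, which encodes clusterin, differed by 0.90 ± 0.20. Fgf9, a signal of early testis development, was at -0.66 and -0.997 and then at -1.50 and -1.70 (-0.77 ± 0.15). Amh, the hormone that removes the female ducts, was at 1.55 and 1.47 and then at 1.22 and 0.99 (-0.41 ± 0.12), and Sox9 differed by -0.26 ± 0.20.

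In the peritubular and interstitial list, 17 of 32 genes lay higher without overlap (53.1%) and 4 lower (12.5%). All genes had 26.4% and 29.1%. The lower ones were Hey1, Heyl, Ptch1 and Hhip. Cnn1, a smooth muscle calponin, was at -1.36 and -1.02 and then at -0.16 and 0.46 (1.34 ± 0.24). Of 38 matrix genes, 19 were higher (50%) and 1, Col18a1, lower (2.63%) without overlap, with a median of 0.32. Of 27 retinoic acid genes, 13 were higher (48.1%) and 2, Aldh1a2 and Nrip1, lower (7.41%) without overlap. Among them Rarb, a receptor and target of retinoic acid, was at -0.32 and -0.23 and then at 0.37 and 0.48 (0.70 ± 0.11), and Lrat, which stores retinol as esters, differed by 1.20 ± 0.25.

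Macrophage genes lay higher at E14.5. Of 21 measured, 16 were higher without overlap (76.2%) and 0 lower, where all genes had 26.4% and 29.1%. The list median was 0.48. F13a1, a clotting factor chain found in macrophages, was at -1.85 and -2.24 at E13.5 and at -1.09 and -0.76 at E14.5 (1.11 ± 0.18). The summed signal of the 4 measured macrophage markers was 2.64 and 2.22 at E13.5 and then 3.66 and 4.21 at E14.5, and none of the 4 was below background. Genes of antigen presentation, chosen after their values were seen, included 11 of 16 measured H2 genes that were higher without overlap (68.8%), and 8 at least 2-fold. All genes had 26.4% and 2.41%. H2-D1, a class I heavy chain, was at 1.13 and 1.84 and then at 2.57 and 2.84 (1.22 ± 0.24). Class I genes are close in sequence, so their probes may share signal. H2-Ab1, a class II chain, was at -1.62 and -1.35 and then at -0.29 and -0.45 (1.11 ± 0.13), while the class II genes H2-Eb1, H2-Aa and H2-DMa overlapped between the stages, with differences of -0.34, -0.20 and 0.01. The part of macrophages in the H2 values was not tested.

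Embryonic globins lay lower at E14.5, while red cell genes as a whole separated the stages no more often than all genes. Hbb-y was at 5.69 and 5.24 at E13.5 and at 4.42 and 2.96 at E14.5 (-1.78 ± 0.47). Hbb-bh1 was at 1.53 and 1.14 and then at 0.46 and -0.98 (-1.59 ± 0.45), with -1.85 on its other probe, and Hba-x differed by -1.08 ± 0.33. Of 26 measured erythroid genes, 5 lay lower without overlap (the 3 globins, Tfrc and Nfe2) and 5 higher. Gata1, Sptb, Rhag and Car1 were among the higher ones, and the stages overlapped in 16. Without overlap, 29.1% of all genes lay lower and 26.4% higher. Sptb, which encodes erythroid spectrin, differed by 1.11 ± 0.18. The summed signal of the 7 measured erythroid markers was 212 and 180 at E13.5 and then 160 and 182 at E14.5, with overlap.

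Genes of the mesonephros and its ducts, which lie beside the gonad, lay higher and lower, at any size, in shares near those of all genes. Of 26 measured, 6 lay higher (23.1%) and 10 lower (38.5%) without overlap, where all genes had 26.4% and 29.1%. Large differences were more frequent than that. At least 2-fold without overlap, 4 of the 26 were lower and 2 higher, against 0.756% and 2.41% of all genes. Lhx1, a transcription factor of the nephric duct, was at -0.78 and -1.55 at E13.5 and at -2.78 and -3.41 at E14.5 (-1.93 ± 0.31). The 2 higher genes were Wnt7a (1.46 ± 0.29) and Cdh16 (2.13 ± 0.86), and the E14.5 arrays disagreed in Cdh16. The summed signal of the 6 mesonephric markers was 0.735 and 0.517 at E13.5 and then 0.604 and 0.306 at E14.5. The stages overlapped in that sum.

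Genes of cell division lay lower by small amounts. Of 36 mitosis genes, 22 were lower without overlap (61.1%) and 2, Bub1 and Kif23, higher (5.56%). All genes had 29.1% lower and 26.4% higher. The mitosis median was -0.22. Ccnb2, a cyclin of mitosis, was at 5.19 and 4.86 at E13.5 and at 4.58 and 4.34 at E14.5 (-0.56 ± 0.16). Of 42 DNA replication genes, 27 were lower (64.3%) and 0 higher without overlap, with a median of -0.18. TTCCCGC stood in 14 of the 34 replication promoters that matched (41.2%), against 7.8% of all.

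The duplicates of E14.5 lay further apart than those of E13.5. Of 13083 genes above background on both E14.5 arrays, 160 were at least 2-fold apart between them (1.22%), while 93 of 13170 were so at E13.5 (0.706%). The second E14.5 array was the lower in 87 of the 160 and the higher in 73. The first E14.5 array was the nearer to the E13.5 mean in 121 of the 160, and in 66.5% of all genes. In SD of the log2 difference over all genes, the first E14.5 array was as near to the second E13.5 array (0.339) as to its own duplicate (0.332), while the E13.5 pair had 0.295 and the first E13.5 and second E14.5 arrays 0.568.

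The gap between duplicates ran along the step between stages. Over the 13489 genes, the stage difference and the gap of the second over the first E14.5 array had a Pearson r of 0.416, and the gap of the E13.5 pair had 0.417. These are correlations across genes, which are not independent replicates, and the gaps share arrays with the difference. Of the 325 genes at least 2-fold higher, the second array was the higher in 266 at E14.5 and in 273 at E13.5. Of the 102 lower genes, it was the lower in 96 and in 87. For all genes the second array was the higher in 41.1% at E14.5 and in 44.7% at E13.5.

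Several gene groups differed between the E14.5 arrays. The median of the pluripotency list, relative to the E13.5 mean, was -0.40 on the first array and -0.94 on the second, and 9 of its 28 genes were at least 2-fold apart. All 48 ribosomal protein genes were lower on the second array, with a median gap of -0.25, and so were 44 of 48 respiratory chain genes (-0.19). Matrix genes ran the other way, with 35 of 38 higher on the second array and a median gap of 0.31. All genes had a median gap of -0.05. The median of the macrophage list was 0.46 on both arrays. That of the Leydig list was 0.36 and 0.38, but 19 of its 25 genes were higher on the second array, with a median gap of 0.11.

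**Figure D3:**
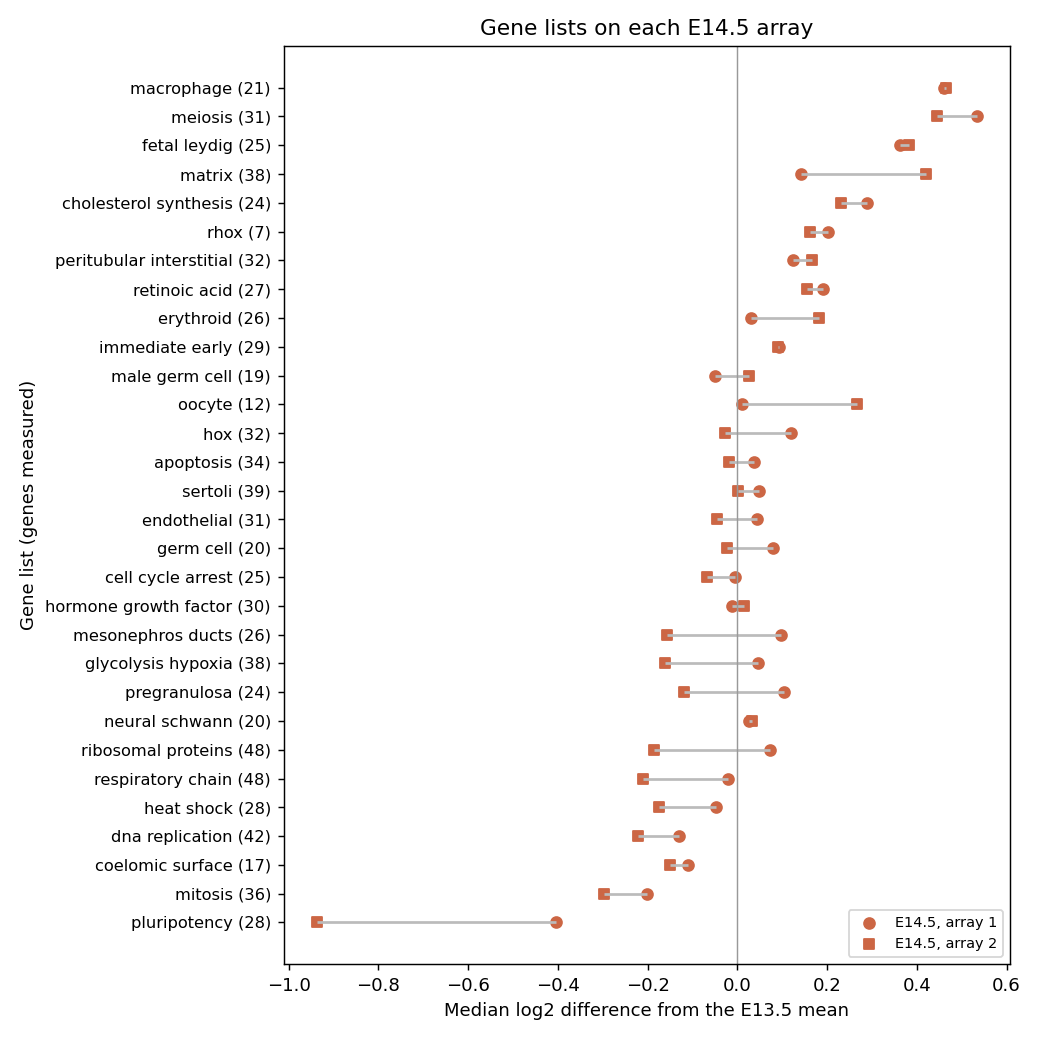
Median log2 difference from the E13.5 mean (x axis) of the genes of each list (y axis, with the number measured) on E14.5 array 1 (circle) and array 2 (square), joined by a line. Among the lists drawn the longest line is that of the pluripotency list, from -0.40 to -0.94, while the macrophage median is 0.46 on both arrays.

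Single genes stood much further apart. Tmem159, which encodes a lipid droplet protein, was at 0.99 and 0.90 at E13.5 and at -3.74 on the first and 1.06 on the second E14.5 array. Prim2, a DNA primase subunit, was at -1.41 and 1.31 at E14.5 after -0.47 and 0.00. In Tmem159 the first E14.5 array stood alone on the low side, while in Prim2 the E14.5 arrays lay on opposite sides of E13.5.

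Hsf2, a heat shock factor, was at -2.41 and -4.74 at E14.5 after -4.26 and -4.08, but its other probe had a gap of -0.22. Prg2, the major basic protein of eosinophils, was at -1.88 and -4.17 after -4.22 and -4.66. Cdh16, a cadherin of kidney tubules, was at -1.64 and -3.69 after -4.93 and -4.65, which makes its large stage difference (2.13 ± 0.86) rest on arrays that disagree. A second probe above background on both E14.5 arrays measured 19 of the 160 genes. Of these 20 other probes, 16 had a gap of the same sign and 6 one of at least 2-fold.

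**Figure D4:**
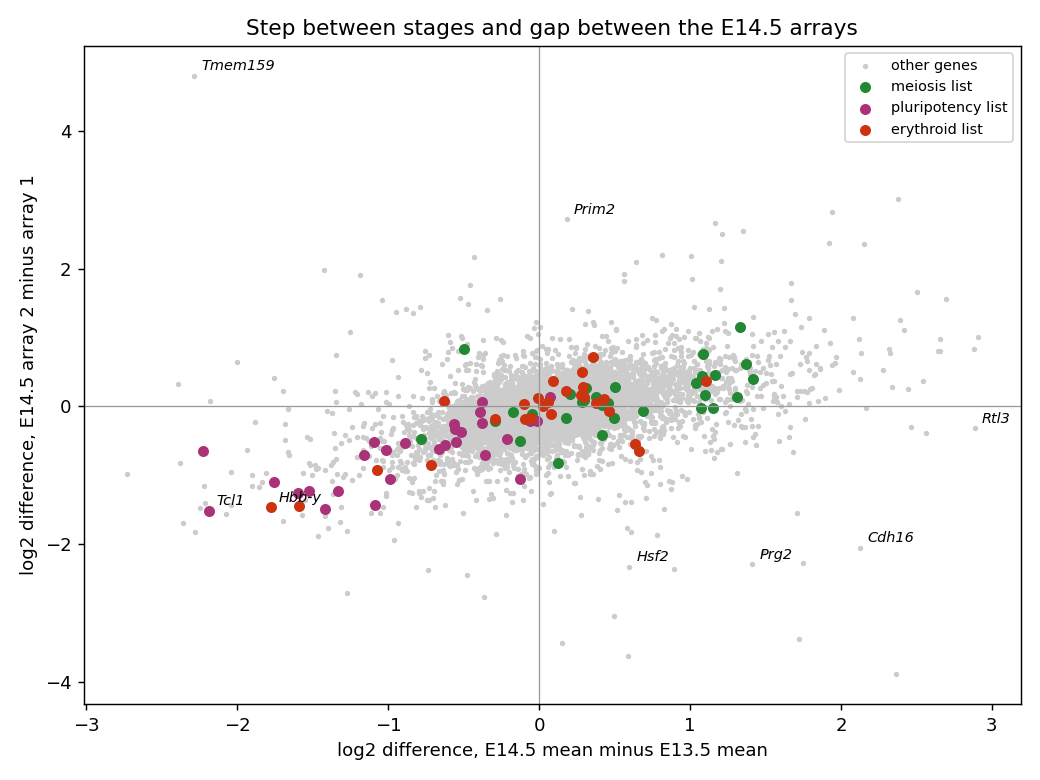
Stage difference of each gene in log2 (x axis) against the gap of E14.5 array 2 over array 1 in log2 (y axis), with 13489 genes in grey and the meiosis, pluripotency and erythroid lists in colour. Most pluripotency genes lie below 0 on both axes, and Tmem159 stands alone at the top with a gap of 4.80.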

How the data were processed

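RNA of male Cyp26b1-/- gonads was hybridised to 1-colour Agilent arrays, with 2 arrays per stage. Per the labels, 0.20 µg of RNA was amplified linearly and labelled with Cy3. The deposited scanner files hold each spot's intensity from Agilent Feature Extraction 9.5, background-subtracted but not scaled between arrays, per the file headers. The authors' deposited table gives a linear ratio for each probe and stage, with a reference that is unstated, and served as an alternative.

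Intensities were put on the log2 scale relative to the 75th percentile of their array, after spots flagged as outliers were dropped and replicate spots averaged. Of 41153 probes used, 23545 were named through RefSeq accessions, for 16620 genes, and 17608 stayed unnamed. The brightest probe stood for a gene. The test took the 13489 genes that passed the background flag on both duplicates of any of the 3 stages. The filter could keep a gene through one stage alone. The contrast was fitted in limma 3.58.1 (R 4.3.3) on all 6 arrays, where E12.5 adds only to the spread, with 3 residual and 3.01 prior degrees of freedom. Tests were two-sided and adjusted by Benjamini-Hochberg. The script was tested on simulated data.

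A gene that passed the flag on no array of the dimmer stage has only a bound. For each array of that stage it took the lowest signal that passed the flag, or the gene's own value where higher. Genes such as Spag16 failed the flag above that lowest signal, so "at least" is approximate. A fold of 2 and no overlap describe genes and carry no test. Named genes were those past the threshold, the 12 largest differences each way with close duplicates, up to 6 of each list, the 10 each way furthest apart between the E14.5 arrays, and 17 fixed by name. Others are named where a count of 5 or fewer or a group was singled out after its values were seen. Members and the 31 lists were chosen with earlier results of these data known. The number of arrays limits the precision. Figures used matplotlib 3.10.9. A result of 1 listed gene is not reported here.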

Additional observations from a re-analysis of the deposited data

How the results depend on the processing

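The number of genes past the threshold, 7 in the fit described, ran from 0 to 395. It was 395 with normexp background correction, 90 with median scaling, 4 with quantile scaling, 352 with a trended robust prior and 1 with a replicate block. It was 0 with genes above background on all 4 arrays, with no filter, with the mean of probes and with the 4 arrays only. Without one array it ran from 0 to 47. Normexp shared 2 of the 7 calls and median scaling 7. Where 0 genes passed in limma, between 1095 and 2536 had an unadjusted p under 0.05. Same-numbered arrays of E13.5 and E14.5 had deviations with r = 0.23, and those of the other stage pairs -0.04 and -0.06, so the numbers were not taken to pair the arrays.

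Genes at least 2-fold higher numbered 102 with normexp and 245 to 482 without one array, against 325. Those at least 2-fold lower numbered 39 with normexp and 69 to 225 without one array, against 102. Genes at least 2-fold apart at E14.5 numbered 45 with normexp, against 160. The causes were not tested. In the authors' deposited table, whose differences lay at a median of -0.11 from the scanner values over genes above background at both stages, the log2 difference was 1.83 for Rtl3, from 1.21 to 2.22 for the 5 other genes that rose and -1.41 for Ldoc1. With normexp and with the trended robust prior, 6 and 5 Leydig genes and 3 and 4 macrophage genes also passed as higher. Median scaling moved the median of all genes to -0.10, and 33.5% of genes were then higher, against 46.5%. The medians of the meiosis, Leydig, cholesterol, macrophage and matrix lists stayed above 0, and those of the pluripotency, mitosis and replication lists below 0, under every alternative run for them. The Sertoli median went to -0.06 with median scaling.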
